A study of Homo sapiens with 6 samples.

Results

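The zinc finger cluster of 19p12 was followed gene by gene in parental H526 cells and in H526 cells made resistant to onvansertib. Members were the protein-coding genes with symbols that start with ZNF and that lie in a window of chromosome 19 (GRCh38) opening just before *TSSK6* (start 19512418) and closing beyond *ZNF254* (end 24129968), whatever their level. This gave 37 of the 62710 genes analysed, 20 on the plus and 17 on the minus strand. The region was chosen by the difference in value between resistant and parental cells in these same libraries, where its zinc finger genes had been seen to be lower, so the differences between the groups are given here as a description, with no p for a member, and lend no support to one another. The calls quoted for members come from a limma fit over all genes.

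H526 is an established human small cell lung cancer line, and onvansertib is an inhibitor of polo-like kinase 1 (PLK1), a kinase of mitosis. Parental cells were compared with onvansertib-resistant cells raised over a year in onvansertib increased from 10 to 75 nM, to look for mechanisms of acquired resistance. Each group had 3 libraries, numbered 1 to 3 in parental and 7 to 9 in resistant cells, from RNA harvested at 3 separate times. The resistant cells are 1 derived line, and whether it is a single clone is not given in the sources used here. Selection, long culture and growth in the drug cannot be told apart, and the errors measure the spread between harvests.

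KRAB zinc finger proteins are repressors that bind DNA through a row of C2H2 zinc fingers. Their KRAB domain recruits TRIM28 (KAP1), which brings in the methyltransferase SETDB1 and heterochromatin proteins, and many of them silence transposable elements. The primate genes of 19p12 arose by repeated tandem duplication, so many of them resemble one another in protein and in promoter. Among the annotated proteins of the 37 members, the number of C2H2 fingers found by pattern ran from 5 to 36 with a median of 13, and the start of a KRAB box was found by pattern in 33 of 37.

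Promoter sequences were compared first. RefSeq gave a promoter window, 250 bases before to 50 after its gene start, for 29 of the 37 members. The first window listed for a gene was taken. This start can lie well inside the gene as annotated by Gencode. It did for *ZNF43*, whose gene runs from 21804946 to 21852125 on the minus strand, and for *ZNF429*, *ZNF730* and *ZNF254*. The windows of such genes may not hold the promoter used in these cells. The windows before the start are printed below for a pair of genes that were nearly lost in resistant cells (*ZNF737* and *ZNF43*) and for a pair of neighbours whose resistant means stayed above 50% of the parental means (*ZNF430* and *ZNF714*). Capitals mark the letters CCAAT, the box bound by NF-Y, and CTTCCGG, which is CCGGAAG, an ETS-type motif, on the other strand. The positions in GRCh38.p14 are chr19:20565782-20566031 on the minus strand for *ZNF737*, chr19:21836183-21836432 on the minus strand for *ZNF43*, chr19:21020407-21020656 on the plus strand for *ZNF430* and chr19:21081953-21082202 on the plus strand for *ZNF714*.
ZNF737: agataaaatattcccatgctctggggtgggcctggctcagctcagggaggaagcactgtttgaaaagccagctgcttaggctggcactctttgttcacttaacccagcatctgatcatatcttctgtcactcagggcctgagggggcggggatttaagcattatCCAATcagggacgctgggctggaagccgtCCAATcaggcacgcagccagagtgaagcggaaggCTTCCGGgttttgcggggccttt
ZNF43: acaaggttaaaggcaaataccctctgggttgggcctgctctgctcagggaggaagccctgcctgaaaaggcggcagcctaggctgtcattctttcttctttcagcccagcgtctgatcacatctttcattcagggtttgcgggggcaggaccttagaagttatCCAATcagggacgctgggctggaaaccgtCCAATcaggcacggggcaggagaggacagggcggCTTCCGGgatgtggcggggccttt
ZNF430: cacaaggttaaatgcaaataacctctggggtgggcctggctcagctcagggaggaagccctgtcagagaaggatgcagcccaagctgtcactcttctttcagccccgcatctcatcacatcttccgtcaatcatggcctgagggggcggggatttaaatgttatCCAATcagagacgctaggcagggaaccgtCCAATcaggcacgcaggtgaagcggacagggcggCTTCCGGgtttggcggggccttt
ZNF714: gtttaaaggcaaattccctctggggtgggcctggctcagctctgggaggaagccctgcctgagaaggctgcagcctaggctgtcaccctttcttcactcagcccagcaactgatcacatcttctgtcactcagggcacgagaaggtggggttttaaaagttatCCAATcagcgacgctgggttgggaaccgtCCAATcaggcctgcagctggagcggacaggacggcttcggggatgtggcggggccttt

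In a global alignment of the 250 bases before the start, the window of *ZNF737* was 76.2% identical to that of *ZNF43*, 77.5% to that of *ZNF430* and 79.1% to that of *ZNF714*. Over the 406 pairs of members the identity ran from 46.9% to 92.0%, with a median of 76.2%. The closest pair was *ZNF714* and *ZNF431*, neighbours that both kept over 50% of their level. Some neighbouring windows had a lower identity, of 50.8% for *ZNF493* and *ZNF429* and of 52.9% for *ZNF429* and *ZNF100*. The windows have fixed limits, so similar sequence placed at a shifted distance from the start also lowers this value. The window of *ZNF429* is shifted in this way against the other windows named, and identity without the shift was not measured. Motifs were searched on both strands of the whole window. CCAAT was found in 29 of 29 member windows and in 35.7% of the 27305 promoters of the table, CCGGAAG in 21 of 29 and in 10.7%, and the GC box GGGCGG in 22 of 29 and in 44.6%. Part of this is shared with other ZNF genes, since among 479 ZNF promoters outside the cluster CCAAT was in 208, CCGGAAG in 175 and GGGCGG in 298. TATAAA was found in 3 of 29 windows and in 12% of all promoters. The E-box CACGTG was in none of the 29 windows and in 7.43% of all promoters. Neither was ACTACAA, found in 2.95% of all promoters, nor, at 3.27% of them, the letters of an NRF1-type site, GCATGCGC.
The run of 10 bases and the run of 14 bases held by most member windows were then sought, a choice made on these windows themselves. TCCAATCAGG, which contains CCAAT, was the commonest run of 10, in 26 of 29 member windows and in 106 of all 27305 promoters (0.388%), and 32 of these belonged to ZNF genes outside the cluster. ATCTTCTGTCACTC was the commonest run of 14, in 16 member windows and in no other promoter of the table. A match of letters is a description and not a bound site.

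Depth and cell identity were checked first. The value of 1 read gave a depth of about 22300000 to 28500000 reads per library, and 3 reads, taken as the limit that a value of 0 allows, corresponded to values between 2.67 and 3.23. This limit covers counting error only. The fit covered 16347 genes whose mean over the 6 libraries was 10 or more. *POU2F3*, which defines the tuft-like subtype of small cell lung cancer, was at 25809 ± 1178 in parental and 27273 ± 536 in resistant cells (SD, n = 3), while *NEUROD1* was at means of 2.23 and 0.427. Among the other tuft-like markers *TRPM5*, *SOX9* and *GFI1B* were called higher and *ASCL2* and *AVIL* lower in resistant cells, and the neuroendocrine markers *INSM1*, *SYP* and *CHGA* were called lower. *YAP1* was called higher, the epithelial markers *EPCAM* and *KRT8* were called lower, and *KRT18* did not pass the threshold. Of 6 markers of blood, stromal and endothelial cells, *PTPRC*, *CD3E* and *PECAM1* had means under 1 in both groups. The sum of the 6 lay between 71.2 and 102.0 in parental and between 237.4 and 323.6 in resistant libraries, and 1 of them, *COL1A1*, was higher in resistant cells (59.7 ± 21.9 against 268.5 ± 34.7, SD, n = 3). Their part in the results on the cluster was not tested.

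Of the 37 members, 26 were tested, and all 26 had a log2 fold change below 0 in resistant cells. By limma with Benjamini-Hochberg adjustment over all genes tested, 19 of 26 were lower and 0 were higher, and at an unadjusted p under 0.05 the counts were 20 and 0. Of the 16347 genes tested, 8191 had a log2 fold change below 0, and 3974 were lower and 3733 higher at an unadjusted p under 0.05. Over all genes tested 19.8% were called lower and 17.8% higher, or 37.7% in either direction. With a log2 fold change under -2 there were 11 of 26 members, against 1.17% of all genes tested. All resistant values lay below all parental values in 21 of 26 members, against 25.9% of all genes tested, and the groups did not overlap in either direction in 49.9%. The median log2 fold change (resistant minus parental, on the log2(value + 1) scale) was -1.66 over the 26 members and 0.00 over all genes tested. It was -0.79 over the 20 members left by a minimum mean of 50, since several of the genes that fell most had low values. The contrast was used to choose the region, and members that passed the filter only through their parental values had to differ, so nothing is read from these counts.

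**Figure D1:**
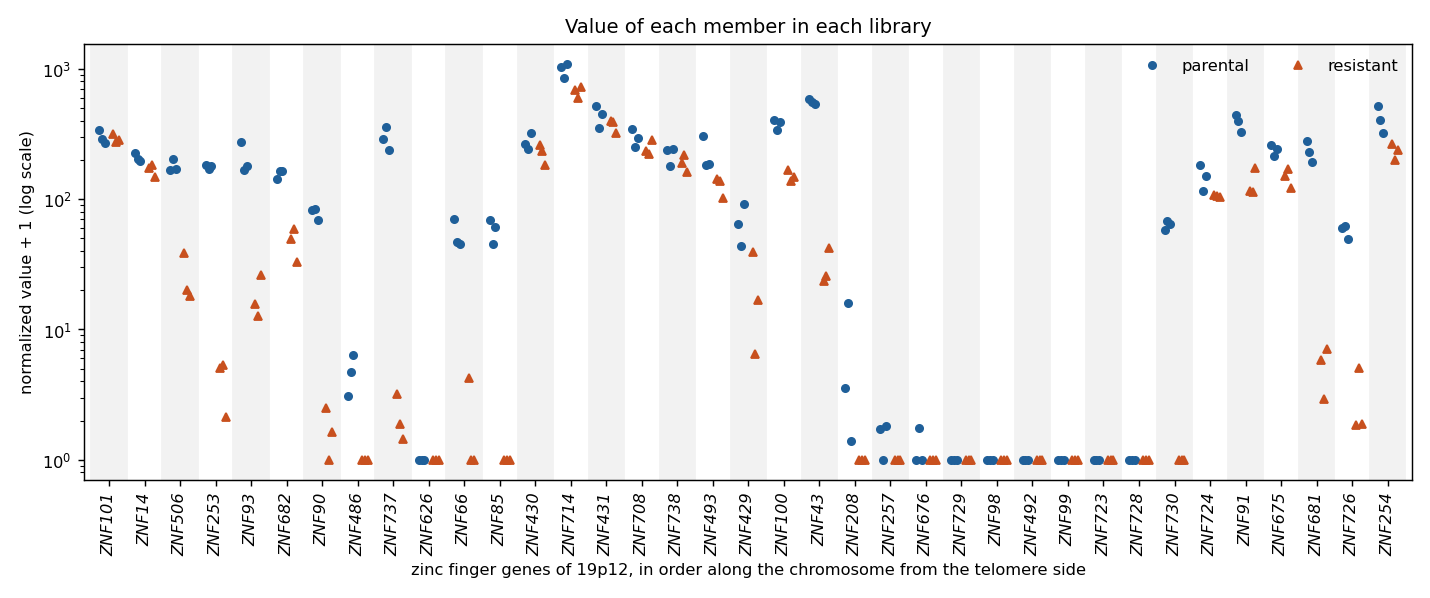
Normalized value + 1 (log axis) of each of the 37 zinc finger genes of 19p12 in each library, in order along the chromosome, with parental libraries as circles and resistant libraries as triangles. Values at the bottom line are 0, resistant values fall to the bottom for *ZNF85* and *ZNF730*, and the groups overlap for *ZNF101* and *ZNF430* to *ZNF738* other than *ZNF714*.

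The summed value of the 37 members was 7371, 6215 and 6499 in parental libraries 1, 2 and 3 and 3372, 3107 and 3117 in resistant libraries 7, 8 and 9. Every resistant library was below every parental library, and the resistant mean was 47.8% of the parental mean. In these bulk libraries a smaller share of cells that express a gene and less RNA of that gene per cell cannot be told apart. The remaining sum was unevenly divided. The 26 tested members were split, after their values had been seen, by the resistant mean as a percentage of the parental mean: 11 were under 15%, 4 lay between 15% and 50%, and 11 were over 50%. The first 11 summed to 1950 ± 164 in parental and 83.6 ± 14.7 in resistant cells (SD, n = 3), or 4.29%. The last 11 summed to 3750 ± 467 and 2766 ± 133 (SD, n = 3), or 73.8%, and supplied most of what was left of the cluster.

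**Figure D2:**
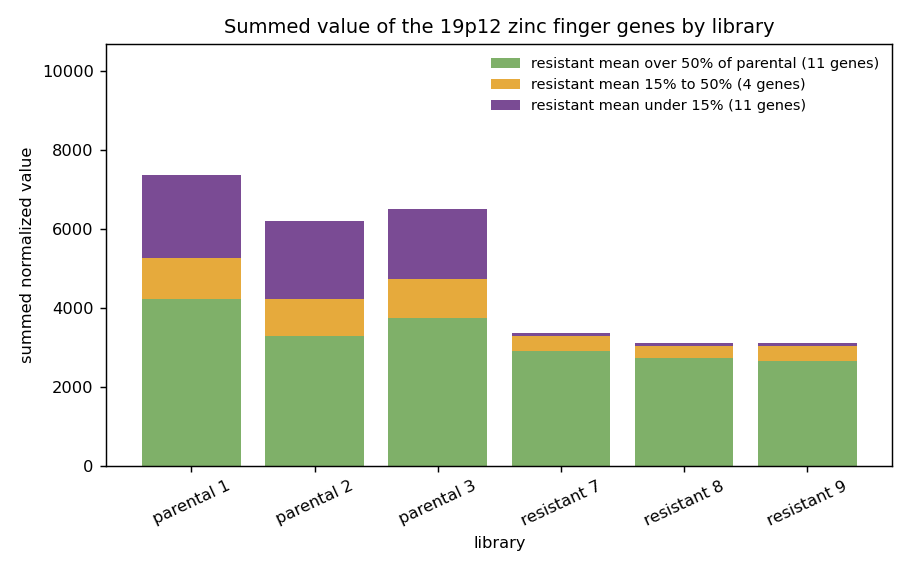
Summed normalized value of the tested zinc finger genes of 19p12 in each library, stacked by how much of the parental mean each gene kept in resistant cells. The part of the 11 genes under 15% shrinks from 1950 ± 164 in parental to 83.6 ± 14.7 in resistant libraries (SD, n = 3), while the part of the 11 genes over 50% goes from 3750 ± 467 to 2766 ± 133.

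The order along the chromosome was followed from the telomere side. The limits of the stretches below were set after the values had been seen, so the counts within a stretch follow from its limits. The first genes were not called lower. *ZNF101* (chromosome 19, 19668796 to 19683509) was at 341, 291 and 266 in parental and at 313, 275 and 282 in resistant libraries. *ZNF14* was at 226, 202 and 196 in parental and at 172, 183 and 148 in resistant libraries. The groups overlapped for *ZNF101*, and *ZNF14* was below every parental library but did not pass the threshold (log2 fold change -0.31, standard error 0.15). *ZNF101* is the first member inside the window. The nearest protein-coding gene with a ZNF symbol before the window, *ZNF333* at 14.69 Mb, was at 141 ± 17.9 in parental and 151 ± 30 in resistant cells (SD, n = 3).

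From *ZNF506* to *ZNF85*, between 19.79 and 20.95 Mb, 10 members follow one another. All 8 that were tested were called lower, against 19.8% of all genes tested, in a stretch drawn by these values. Their resistant means were between 0% and 29.6% of the parental means. *ZNF506* was at 166, 203 and 169.6 in parental and at 37.8, 19.2 and 17.0 in resistant libraries, a log2 fold change of -2.89 (standard error 0.30). *ZNF253*, first cloned from bone marrow, was at 182, 168 and 178 in parental libraries and at 4.04, 4.38 and 1.13 in resistant libraries. *ZNF93*, known as a repressor of LINE-1 retrotransposons, went from 273, 166 and 179 to 14.7, 11.7 and 25.2 (log2 fold change -3.54, standard error 0.32). For these 3 genes every resistant library was far below every parental library. *ZNF682* kept the most in this stretch, with 142, 163 and 163 in parental and 48.1, 58.5 and 32.2 in resistant libraries.
The genes further along the stretch were at or near 0. *ZNF737* (chromosome 19, 20535825 to 20565809, minus strand), with the promoter window printed above, was at 286, 354 and 239 in parental libraries and at 2.18, 0.87 and 0.451 in resistant libraries. This came to about 3 reads over the 3 resistant libraries, a ratio of 278 with a 95% counting interval of 94.9 to 1351. *ZNF90* was at 81.4, 83.6 and 68.4 in parental and at 1.5, 0 and 0.644 in resistant libraries, a ratio of 111 with an interval of 30.4 to 920.2. These intervals are exact binomial ones that take 1 value of a read per library for all genes and cover counting error only. Since the low values were not all whole multiples of it, the reads, intervals and 3-read limits of single genes are approximate.
*ZNF85*, a testis-expressed repressor, was at 67.6, 44.6 and 60.6 in parental libraries and listed at 0 in all 3 resistant libraries, so that it was at least 18.2-fold lower against a limit of 3 reads per library. *ZNF66* was at 69.5, 46.2 and 44.5 in parental and at 3.25, 0 and 0 in resistant libraries, a ratio of 51.1 with an interval of 17.2 to 250.5. *ZNF486* was at 2.07, 3.76 and 5.33 in parental libraries and at 0 in the resistant ones, at least 1.18-fold lower by the same limit. Both genes had so few reads that the size of the difference is poorly known. *ZNF626*, between *ZNF737* and *ZNF66*, was at 0 in every library of both groups. Together the 10 members summed to 1203 ± 84.8 in parental and 94.2 ± 17.5 in resistant cells (SD, n = 3).

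The next 6 genes, from *ZNF430* to *ZNF493* between 21.02 and 21.43 Mb, kept more of the parental level than their neighbours on both sides. The stretch was drawn by this difference. Their resistant means were between 57.2% and 85.5% of the parental means, and 2 of 6 were called lower, against 19.8% of all genes tested. *ZNF430*, the next gene after *ZNF85*, was at 262, 243 and 318 in parental and at 259, 231 and 181 in resistant libraries, and the groups overlapped. *ZNF714* was at 1033, 849.6 and 1090.2 in parental libraries and at 690.1, 599 and 724 in resistant libraries. It fell in every resistant library, by a log2 fold change of -0.56 (standard error 0.12).
*ZNF431* was at 512, 352 and 448 in parental and at 395, 391 and 320.4 in resistant libraries. *ZNF708* went from 341, 251 and 295 to 235, 219.6 and 281, and *ZNF738* from 239, 179 and 242 to 187, 217 and 159. The groups overlapped for these 3 genes, with log2 fold changes between -0.27 and -0.22 that did not pass the threshold. *ZNF493* was at 302, 182 and 184 in parental and at 142, 138 and 102 in resistant libraries, a log2 fold change of -0.77 (standard error 0.23). Its call was lost without parental library 1, without resistant library 9 and without the intensity trend.

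Beyond 21.43 Mb the lower values returned. *ZNF429* was at 63.8, 42.6 and 90.3 in parental and at 38.3, 5.43 and 15.8 in resistant libraries. Its resistant library 7 came close to parental library 2. The call of *ZNF429* was lost without parental library 1 or 3, without resistant library 8 and without the trend. *ZNF100* was at 401, 337 and 390.5 in parental and at 165, 136 and 147 in resistant libraries, a log2 fold change of -1.33 (standard error 0.14). *ZNF43* (chromosome 19, 21804946 to 21852125, minus strand), with 19 fingers, went from 581, 555 and 531 in parental libraries to between 22.6 and 41.1 in the 3 resistant libraries, a log2 fold change of -4.24 (standard error 0.23). The resistant mean of *ZNF43* was thus 5.29% of its parental mean.
Then follow 9 members from *ZNF208* to *ZNF728*, between 21.93 and 23.00 Mb, that were silent or nearly so in both groups. *ZNF208*, with 36 fingers the longest array of the cluster, was at 2.56, 15 and 0.403 in parental and at 0 in all resistant libraries. Only parental library 2 was above 3 reads, so no fold is given. *ZNF257* and *ZNF676* had no value above 0.814, and *ZNF729*, *ZNF98*, *ZNF492*, *ZNF99*, *ZNF723* and *ZNF728* were at 0 in all 6 libraries. With *ZNF626*, 9 members were at or under 3 reads in every library, 7 of them at 0 throughout. Of all 62710 genes, 40639 were at or under 3 reads in every library. None of the 37 members was found in resistant cells only, against 1630 of the 62710 genes, and nothing is read from this count.

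The last 7 members, from *ZNF730* to *ZNF254*, alternated between near loss and moderate levels. *ZNF730* was at 56.5, 66.4 and 63.9 in parental libraries and listed at 0 in all resistant libraries, at least 19.7-fold lower against a limit of 3 reads per library. *ZNF724*, the next gene, was at 181, 114 and 149.8 in parental and at 107, 105 and 103 in resistant libraries, and did not pass the threshold (log2 fold change -0.47, standard error 0.20). It did without parental library 2 (log2 fold change -0.64). Of its transcript, 55.4% of the 50-base windows are also in another gene, most of them in the overlapping gene ENSG00000283201, so its value is uncertain.
*ZNF91*, which silences SVA retrotransposons and has 31 fingers, was at 441, 394 and 325 in parental and at 115, 112 and 173 in resistant libraries. All 3 resistant libraries were below the lowest parental one, and the log2 fold change was -1.55 (standard error 0.20). *ZNF675*, also known as TIZ, an inhibitor of TRAF6 signalling, went from 261, 213 and 240.4 to 149, 170 and 121, a log2 fold change of -0.71 (standard error 0.17).
*ZNF681* was at 279, 227 and 192 in parental libraries and at 4.88, 1.95 and 6.05 in resistant libraries, a log2 fold change of -5.54 (standard error 0.37). *ZNF726* had means of 56.3 ± 6.63 and 1.93 ± 1.87 (SD, n = 3). The last member, *ZNF254*, was at 521, 407 and 320.3 in parental and at 265, 199 and 235 in resistant libraries, a log2 fold change of -0.81 (standard error 0.18). *ZNF681* and *ZNF726* were thus under 4% of the parental mean between *ZNF675* at 61.5% and *ZNF254* at 56.0%. The next protein-coding gene with a ZNF symbol beyond the window, *ZNF536* at 30.22 Mb, was at 48.7 ± 15.8 and 30.4 ± 7.02 (SD, n = 3).

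**Figure D3:**
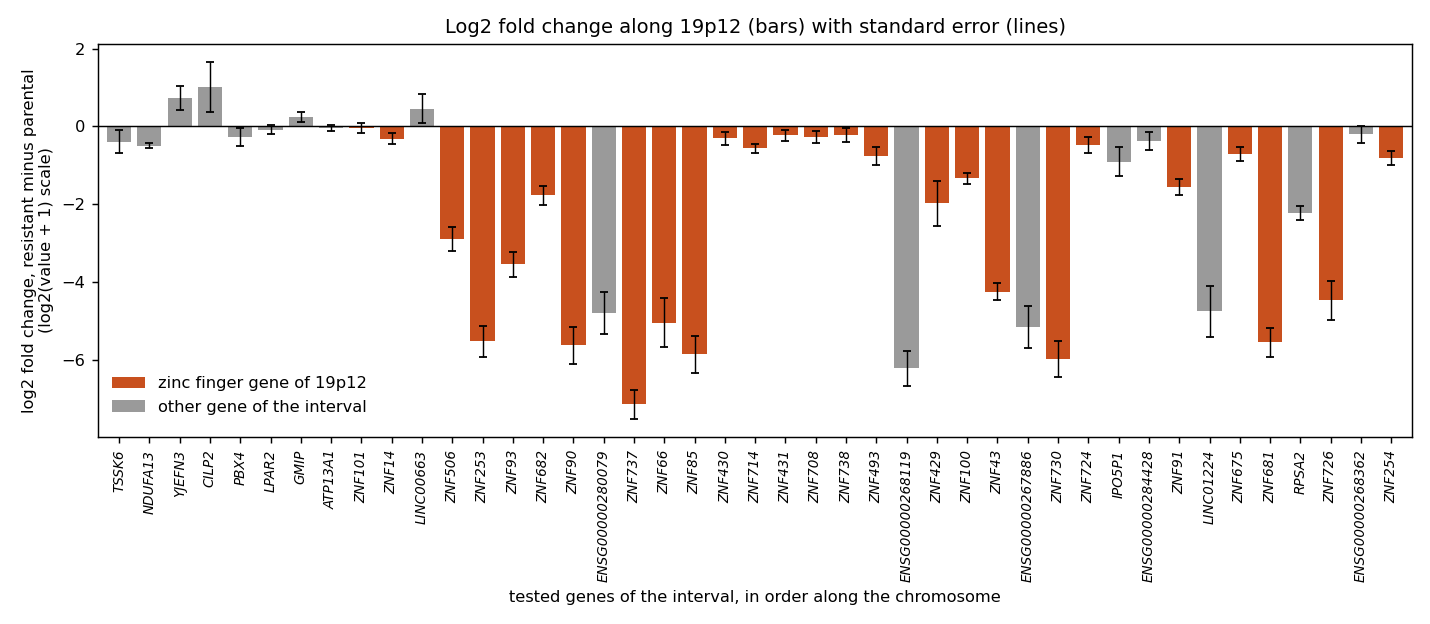
Log2 fold change (resistant minus parental, log2(value + 1) scale) of the 26 tested zinc finger genes and the 17 other tested genes of the interval, in order along the chromosome, with standard errors as lines. Bars from *ZNF506* to *ZNF85* reach between -7.14 and -1.77, those from *ZNF430* to *ZNF493* stay between -0.77 and -0.22, and deep and shallow bars alternate beyond.

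Levels of single genes were ranked per kb of the canonical transcript. The ranks depend on this length, which was 2.31 kb for *ZNF675* and 13.89 kb for *ZNF431*. The transcripts used in these cells were not determined. In parental cells *ZNF714* (113 ± 14.4 per kb), *ZNF43* (106 ± 4.75), *ZNF675* (103 ± 10.3) and *ZNF254* (102 ± 24.6) had the highest levels (SD, n = 3), and these 4 do not differ beyond their spread. In resistant cells *ZNF714* (76.7 ± 7.41 per kb), *ZNF675* (63.4 ± 10.7), *ZNF101* (62.5 ± 4.42) and *ZNF708* (61.2 ± 7.98) had the highest levels, and neighbours in this order do not differ beyond their spread. By this measure *ZNF43* went from rank 2 of 37 to rank 17, at 5.62 ± 1.94 per kb, and *ZNF93* from rank 5 to rank 16. The fold change was set beside other features of the genes as a description over members, which share libraries and ancestry. Spearman's rho with the log2 fold change was 0.44 for the parental level per kb (26 members), 0.47 for the number of CpG in the promoter window (23 members), -0.17 for the number of fingers (26 members) and -0.03 for the order along the chromosome (26 members). The parental level also enters the fold change, so the rho of 0.44 is not between separate measures.
The promoter letters were counted in the same sets. TCCAATCAGG was in 9 of 9 windows of genes under 15%, in 4 of 4 between 15% and 50% and in 9 of 10 over 50%, and CCGGAAG in 7 of 9, 2 of 4 and 7 of 10. ATCTTCTGTCACTC was in 7 of 9, 2 of 4 and 4 of 10. The sets are small and these differences were not tested. The median number of CpG per window was 9.0, 9.5 and 11.5 in these sets, against 14 over all promoters of the table.

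Reads of such similar genes can be divided with error. The share of each member's canonical transcript that occurs letter for letter in a transcript of another gene was therefore counted. Among the 26 tested members a median of 5.3% of 50-base windows and of 0% of 100-base windows did so, and 24 of 26 shared at most 5% of their 100-base windows. The other 2 were *ZNF724* and *ZNF738*, with 55.4% and 28.7% of their 50-base windows in another gene, and both were over 50% of the parental level. Over the 24 members, 19 were lower and the median log2 fold change was -1.87. Of the 100-base windows of *ZNF98*, 33.1% are also in *ZNF492*, and both genes were at 0.

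The interval holds 190 other genes by the annotation, mostly pseudogenes and long noncoding RNAs, of which 17 were tested, 6 were lower and 0 were higher by limma with Benjamini-Hochberg adjustment. At an unadjusted p under 0.05, 7 were lower and 1 higher. The shares over all genes tested were the 19.8% lower and 17.8% higher given above, with 3974 and 3733 of 16347 at an unadjusted p under 0.05. Before *ZNF506* lie 9 of the 17, among them *LPAR2*, a receptor for lysophosphatidic acid, at 346 ± 29.3 and 327 ± 26.2, and *ATP13A1* at 2188 ± 90.2 and 2137 ± 220 (parental and resistant mean ± SD, n = 3). *GMIP* was at 416 ± 42.4 and 497 ± 70.9, *PBX4* at 72.8 ± 15.8 and 59.1 ± 2.22 and *TSSK6* at 65.5 ± 5.46 and 52.1 ± 18.3. The remaining 3, of lower value, had higher resistant means without passing the threshold: *YJEFN3* at 169.2% of the parental mean, with all resistant libraries above all parental ones, *CILP2* at 187.9% and *LINC00663* at 138.1%. Of these 9 genes only *NDUFA13*, a subunit of respiratory complex I, was called lower, from 2617 ± 82.8 to 1867 ± 127 (log2 fold change -0.49).
Other transcripts lie among the zinc finger genes themselves. ENSG00000280079, between *ZNF486* and *ZNF737*, was at 24.9, 24.2 and 31.4 in parental and at 0 in all resistant libraries. ENSG00000268119, a long noncoding RNA between *ZNF493* and *ZNF429*, went from 100.5, 76.8 and 135 to 0.419, 0 and 0.867. *LINC01224*, next to *ZNF91*, was at 58.3, 46.2 and 31.9 in parental and at 0, 3.7 and 0 in resistant libraries. These 3 genes and ENSG00000267886, like *YJEFN3*, *CILP2* and *LINC00663*, were chosen after their values had been seen.
ENSG00000267886 overlaps *ZNF730* on the same strand and was likewise at 0 in every resistant library, but reads of overlapping genes may be divided between them with error. *RPSA2*, between *ZNF681* and *ZNF726*, was at 375, 359 and 342 in parental and at 80.3, 60.1 and 92.4 in resistant libraries, 21.6% of the parental mean. The pseudogene *IPO5P1* was at 333, 257 and 257 in parental and at 69.9, 245 and 193 in resistant libraries, and passed the threshold only without resistant library 8 (log2 fold change -1.26, adjusted p = 0.0284 by limma). ENSG00000284428 and ENSG00000268362, which overlaps *ZNF254*, were at 76.2% and 87.8% of the parental means and did not pass it. Sequence shared with other genes was counted for members only, so reads divided with error were not checked for *RPSA2* and *IPO5P1*. Counting genes too low to test, 17 of the 190 were above 3 reads in a parental library and at or under 3 reads in every resistant library, and 0 of 190 the other way round, against 1147 and 1630 of all 62710 genes.

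Protein-coding genes on either side and zinc finger genes elsewhere were compared by their counts and medians. In the Mb before the window, of 25 protein-coding genes with a test, 4 were lower and 4 higher (median log2 fold change -0.11). Of the 11 nearest ones beyond the window, across the centromere, 4 were lower and 2 higher, with a median of -0.25. Tested zinc finger genes had medians of -0.29 in the rest of 19p (16 of 46 lower), -0.30 on 19q (61 of 159 lower and 4 higher), -0.61 in 7q11 (5 of 7 lower) and -0.11 on other chromosomes (53 of 232 lower and 23 higher). Within 19q the medians were -0.42 at 35 to 39 Mb (9 of 26 lower), -0.07 at 43 to 45 Mb (3 of 22 lower) and -0.35 towards the telomere (48 of 95 lower). With a log2 fold change under -2 there were 0 of 46 in the rest of 19p, 5 of 159 on 19q, 1 of 7 in 7q11 and 0 of 232 on other chromosomes, against 11 of 26 in 19p12. Over all genes tested, 19.8% were called lower and 17.8% higher, and 1.17% were called with a log2 fold change under -2. Several lists lie near these shares, and the differences between lists were not tested.

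**Figure D4:**
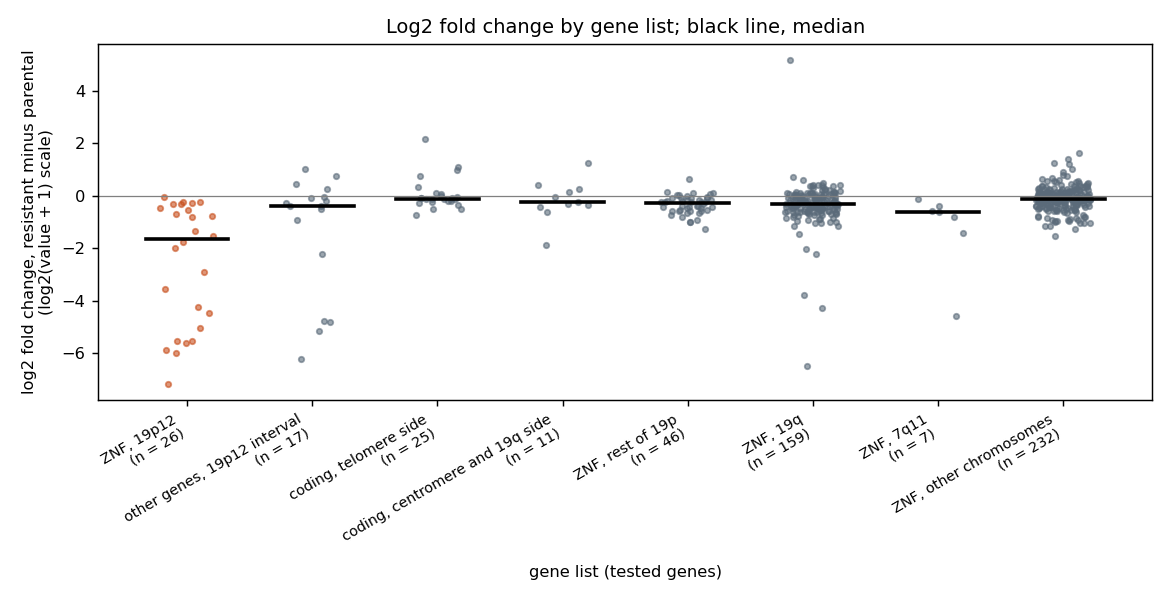
Log2 fold change (resistant minus parental, log2(value + 1) scale) of each tested gene, by list, with the median of each list as a black line. The 19p12 zinc finger genes spread from -7.14 to -0.04 with a median of -1.66, and the medians of the other 7 lists plotted (other genes of the window, protein-coding genes on either side, and ZNF genes in the rest of 19p, on 19q, in 7q11 and on other chromosomes) lie between -0.61 and -0.11.

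A list of 28 genes held corepressors of KRAB domains and other silencing factors, and 27 were tested. The others included DNA methyltransferases, *UHRF1*, *MORC3* and the zinc finger genes *ZNF274* and *ZFP57*, so the counts do not describe KRAB corepressors alone. By limma with Benjamini-Hochberg adjustment 6 were lower and 3 higher (22.2% and 11.1%, against 19.8% and 17.8% of all genes tested), and the median log2 fold change was -0.07. *TRIM28* was at 26997 ± 1158 in parental and 23606 ± 2771 in resistant cells and *SETDB1* at 4434 ± 146 and 4346 ± 235 (SD, n = 3), and neither passed the threshold. The smallest p belonged to *MORC3*, a chromatin protein encoded on chromosome 21. Its values were 747, 685 and 752 in parental libraries and 2060.2, 2152 and 1999 in resistant libraries (log2 fold change 1.51 ± 0.08 SE, limma adjusted p = 8.27e-07). *UHRF1*, which recruits the maintenance DNA methyltransferase, fell to 78.5% of its parental mean (log2 fold change -0.35, limma adjusted p = 0.001). *MPHOSPH8*, a subunit of the HUSH silencing complex, rose to 134% (limma adjusted p = 0.00121), and the histone deacetylase *HDAC1* fell to 76.8% (limma adjusted p = 0.00165).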

How the data were processed

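RNA-seq of 3 parental and 3 onvansertib-resistant H526 libraries was analysed. The authors trimmed reads with Trimmomatic 0.38, aligned and quantified them with RSEM 1.3.1 and STAR on the GRCh38 primary assembly with Gencode v43, and normalized the gene counts with DESeq2 1.30.0 (versions from the submitters' processing notes). The deposited values are this normalized signal, with replicates kept apart and no filter. Strand settings are not given in the sources used here. Only 29.9% to 56.7% of the low values in a library lay within 0.02 of a multiple of its most frequent low value. The values are thus not all whole reads, and count models were left out.

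The table had 62757 rows, and 47 second copies of pseudoautosomal genes were left out. Symbols and positions came from Gencode v44 (GRCh38) for 62639 of 62710 rows, by identifier without version. The fit used limma 3.58.1 under R 4.3.3 on log2(value + 1) for genes with a mean of 10 or more, with an intensity trend, Benjamini-Hochberg adjustment and a threshold of 0.05, and was checked on simulated data. Other steps used Python 3.11.15,. Promoters came from RefSeq (GRCh38.p14) and transcripts from Gencode v44.

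The members and lists were chosen with earlier results of these data known. Members with a mean of at least 100 in a group, or at or under 3 reads in all libraries of a group, are given by library. The exceptions are *ZNF257* and *ZNF676*, given by their highest value. The others are given by values or means. Added to these are the 10 other genes of the interval highest in mean, the 4 genes of smallest p in the list of silencing factors and the nearest ZNF genes outside. As alternatives the pseudocount was set to 0.1 or 10, the minimum mean to 0 or 50, and the scaling to unweighted trimmed means of M values (TMM) or quantiles, the trend was dropped, each library was left out in turn, ZNF symbols of any biotype were taken and, added after the data were seen, members sharing at most 5% of 100-base windows were kept.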

Additional observations from a re-analysis of the deposited data

How the results depend on the processing

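The number of 19p12 zinc finger genes called lower, 19 of 26, ran from 13 to 20 over the alternatives, and 0 were higher in each. The lowest count, 13 of 20, came with a minimum mean of 50, which tests fewer genes. The highest was 20 of 26 without parental library 2 and 20 of 30 with no minimum mean. In the main fit 19.8% of all genes tested were lower and 17.8% higher, and these shares are not given for the alternatives. The number of genes called in either direction over the whole table, 6161 of 16347 tested, ran from 4784 of 16273 (without resistant library 8) to 6228 of 16347 (pseudocount of 10). The summed percentage, recomputed for TMM, each library left out, other ZNF symbols and little shared sequence, ran from 46.0% to 50.3%. The median log2 fold change of the members, -1.66, was -1.47 with a pseudocount of 10, -0.79 with a minimum mean of 50 and -0.79 over members with a parental mean of at least 100, alternatives that weigh down or leave out genes of low value, and -1.87 over members with little shared sequence. With each library left out it ran from -1.69 to -1.37, the last without resistant library 8. Of the 26 tested members, 22 kept their call and sign under every alternative in which they were tested. *ZNF429* and *ZNF493* lost and *ZNF724* gained a call, as given with their values. With each library left out, the log2 fold change of *ZNF101* ran from -0.12 to 0.06 and that of *ATP13A1* from -0.12 to 0.02, turning without parental library 1 and without resistant library 7. No paired analysis was possible because the labels number the parental libraries 1 to 3 and the resistant libraries 7 to 9 and do not say which were harvested together, although the study describes the samples as matched. With 3 libraries a group and values that are not all whole reads, folds of genes near 0 in resistant cells are limited by depth.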
